A study of Mus musculus with 36 samples.

Results

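The genes described here encode the proteins of the cytosolic ribosome, the particle that translates messenger RNA in the cytoplasm. Members were taken by gene symbol: names that begin with Rpl or Rps and a number, Rplp0 to Rplp2 and Rpsa, without the Rps6k kinases and without symbols marked as pseudogenes. Of 104 rows with such names, 10 Rps6k rows and 6 pseudogene rows were left out, which gave 88 candidates. Among these, 86 had a mean of at least 1 FPKM (fragment counts divided by transcript length and by library size) and are the members, out of 11144 genes tested and 24066 rows with a unique symbol. The candidates below that limit were Rpl10l, listed at 0 FPKM in every library, and Rpl39l with a mean of 0.028 FPKM. The members comprised 43 large subunit genes, 31 small subunit genes, the 3 genes of the P stalk, 8 paralogs, and Rps19bp1, which matched by name but encodes a binding partner of the small subunit protein RPS19.

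The study sequenced kidney RNA of male wild-type mice (strain given as C57BL/6J in the labels) fed a high-fat diet or normal chow ad libitum from 6 weeks of age under 12 h of light and 12 h of darkness. The labels give 16 weeks for the harvest. For each diet, kidneys came from 3 mice at each of ZT0, 4, 8, 12, 16 and 20, where ZT (zeitgeber time) counts hours from lights on, so the high-fat group and the chow group hold 18 libraries each. The question in the study's title is how the diet alters daily cycles in the kidney, and the members were therefore compared by diet and by time of day.

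A ribosome holds equimolar amounts of nearly all its proteins, and cells make these proteins in step. Many of the messenger RNAs begin with a run of pyrimidines directly at the cap, the 5′ terminal oligopyrimidine (TOP) tract, through which mTORC1 signalling, with LARP1 as the binding protein, governs their translation. Mammalian genomes also carry many retrocopies of these genes, so a read from a ribosomal protein transcript can fit more than 1 place in the genome.

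Sequences are shown where they bear on the values. The first set is the coding sequence of Rps27, a small subunit gene, of its retrogene Rps27rt, and of the paralog Rps27l, since the first pair share their whole coding sequence. They were read from GENCODE M21 transcripts on GRCm38 (the assembly of mm10), 5′ to 3′. Rps27 lies at chr3:90212522-90213651 on the minus strand, Rps27rt at chr9:114982366-114982739 on the minus strand, and Rps27l at chr9:66946086-66949516 on the plus strand. Capitals mark the 61 bases at which Rps27l differs from Rps27 in a coding sequence of 255 nt. Rps27rt differs at 0 bases.
Rps27 and Rps27rt: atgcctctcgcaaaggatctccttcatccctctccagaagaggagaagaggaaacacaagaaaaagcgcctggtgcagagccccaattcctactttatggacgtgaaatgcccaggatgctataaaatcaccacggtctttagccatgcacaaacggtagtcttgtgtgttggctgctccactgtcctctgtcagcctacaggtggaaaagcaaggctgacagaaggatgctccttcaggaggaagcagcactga
Rps27l: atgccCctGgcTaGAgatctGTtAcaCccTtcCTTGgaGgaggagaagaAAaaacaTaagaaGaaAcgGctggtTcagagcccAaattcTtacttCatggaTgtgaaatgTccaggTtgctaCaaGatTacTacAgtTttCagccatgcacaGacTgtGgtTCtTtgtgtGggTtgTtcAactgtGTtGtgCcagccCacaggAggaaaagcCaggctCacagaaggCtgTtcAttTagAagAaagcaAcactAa

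The second set is the 30 bases around the annotated start site (15 before and 15 after) of the members that passed the diet test described further on and have an entry among the RefSeq promoters of GRCm38.p6. Capitals mark a run of at least 8 C and T that overlaps the stretch from 5 bases before to 5 bases after the start. For Rps24 the first of its annotated starts is shown. The windows lie at chr2:39005117-39005146 (Rpl35, minus strand), chr7:141447636-141447665 (Rplp2, plus), chr14:24490663-24490692 (Rps24, plus), chr10:23787195-23787224 (Rps12, minus), chr10:128549154-128549183 (Rpl41, minus) and chr17:33824548-33824577 (Rps28, minus).
Rpl35: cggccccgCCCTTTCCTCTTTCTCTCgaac
Rplp2: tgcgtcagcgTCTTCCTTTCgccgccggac
Rps24: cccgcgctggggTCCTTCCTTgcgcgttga
Rps12: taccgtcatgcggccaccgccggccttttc
Rpl41: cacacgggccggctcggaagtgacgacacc
Rps28: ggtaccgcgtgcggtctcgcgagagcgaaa

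Of the 65 members with a promoter entry, 24 (36.9%) held such a run on the gene strand, against 2962 (10.96%) of all 27025 genes in that table. Among the 6 windows above, 3 held a run and 3 did not. A match describes letters at an annotated start, which need not be the start used in the kidney.

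The members were among the most abundant kidney transcripts. Together they made up 8.94 ± 0.435% of all FPKM in the high-fat libraries and 9.20 ± 0.626% in the chow libraries (SD, n = 18 each). The high-fat libraries ranged from 8.28 to 9.84% and the chow libraries from 7.70 to 10.1%. FPKM is scaled to length, so levels are set side by side between genes here. Such comparisons are limited by shared sequence and by the transcript length used for each gene, which is not given in the sources used here. The median level of the 43 large subunit genes was 544 FPKM in high-fat kidneys and 589 FPKM in chow kidneys, and that of the 31 small subunit genes was 607 FPKM in high-fat kidneys and 671 FPKM in chow kidneys. Within a subunit, whose proteins are needed in equal numbers, the deposited levels still spanned a wide range, from 33.7 to 2643 FPKM for the large subunit in high-fat kidneys and from 34.0 to 2962 FPKM in chow kidneys.

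The highest member was Rpl41, which encodes a very short basic peptide of the large subunit, with a mean of 2643 ± 392 FPKM in high-fat kidneys and 2962 ± 397 FPKM in chow kidneys. Rps29, a zinc-binding protein of the small subunit, followed with 2048 ± 218 FPKM under the high-fat diet and 2214 ± 305 FPKM under chow. Rps27rt had 1653 ± 177 FPKM under the high-fat diet and 1703 ± 197 FPKM under chow. Rps15, a protein of the small subunit head, had 1487 ± 173 FPKM under the high-fat diet and 1545 ± 207 FPKM under chow. Errors in this paragraph are SD over 18 libraries. The ranges of Rps27rt and Rps15 overlapped, and within a library Rps27rt exceeded Rps15 in 34 of 36, among them all 18 high-fat libraries. The exceptions were chow ZT4 replicate 2 and chow ZT8 replicate 4.

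The 5 lowest members were Rpl3l, Rpl37rt, Rps27, Rps4l and Rps19bp1. Rpl3l, the paralog of Rpl3 known from striated muscle, averaged 3.66 ± 1.02 FPKM in high-fat kidneys and 3.81 ± 0.851 FPKM in chow kidneys, where Rpl3, a protein close to the peptidyl transferase centre, averaged 386 ± 19.6 FPKM under the high-fat diet and 365 ± 28.5 FPKM under chow. Rpl37rt, a retrogene of Rpl37, averaged 7.502 ± 1.05 FPKM under the high-fat diet and 7.66 ± 1.43 FPKM under chow. Rps27 averaged 15.3 FPKM over all 36 libraries, a value taken up again below. Rps4l, a paralog of Rps4x, averaged 16.2 ± 3.46 FPKM under the high-fat diet and 18.7 ± 4.36 FPKM under chow. Rps19bp1 averaged 21.9 ± 3.00 FPKM under the high-fat diet and 23.6 ± 3.14 FPKM under chow.

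The other paralogs stood at different levels relative to their canonical genes. Rpl22l1, the paralog of Rpl22, had 174 ± 13.96 FPKM in high-fat kidneys and 166 ± 20.2 FPKM in chow kidneys, above Rpl22 itself at 71.5 ± 3.96 FPKM under the high-fat diet and 70.3 ± 4.52 FPKM under chow. The libraries of these 2 genes did not overlap in either diet. The length used to scale Rpl22 is not known. Its GENCODE M21 transcripts have a median length of 2048 nt, and the transcript read for shared stretches has 474 nt. Rpl36al, the paralog of Rpl36a, had 471 ± 41.4 FPKM under the high-fat diet and 493 ± 55.9 FPKM under chow, where Rpl36a had 394 ± 24.5 FPKM under the high-fat diet and 406 ± 31.4 FPKM under chow. Rps27l, a p53-responsive paralog, had 423 ± 31.1 FPKM under the high-fat diet and 426 ± 34.2 FPKM under chow. Rpl7l1, which acts in ribosome assembly, had 32.8 ± 1.95 FPKM under the high-fat diet and 32.7 ± 2.59 FPKM under chow, far below Rpl7 at 529 ± 40.5 FPKM under the high-fat diet and 517 ± 22.8 FPKM under chow.

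The P stalk is the flexible arm that recruits the translation factor GTPases to the large subunit. Its scaffold Rplp0 had 599 ± 34.2 FPKM in high-fat kidneys and 620 ± 64.1 FPKM in chow kidneys. The acidic stalk proteins, which bind it in several copies, lay higher: Rplp1 had 1055 ± 105 FPKM under the high-fat diet and 1116 ± 122 FPKM under chow, and Rplp2 had 934 ± 119 FPKM under the high-fat diet and 1062 ± 177 FPKM under chow. In both diets every library of Rplp1 exceeded every library of Rplp0.

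The row of Rps27 was far below its subunit. Its lowest, median and highest values were 0.505, 2.03 and 107 FPKM in the high-fat libraries and 1.22, 2.40 and 162 FPKM in the chow libraries. Of the 36 libraries, 31 held at most 4.33 FPKM, and 5 held more than 60 FPKM, a limit chosen after the values were seen. These 5 were high-fat ZT0 replicate 1 with 76.0 FPKM, high-fat ZT20 replicate 3 with 107 FPKM, chow ZT0 replicate 5 with 61.9 FPKM, chow ZT8 replicate 4 with 162 FPKM and chow ZT12 replicate 3 with 80.1 FPKM. In each case the other replicates of the same diet and time stayed in the low range.

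Rps27rt showed no such split, with values of 1433 to 2027 FPKM in the high-fat libraries and 1237 to 1912 FPKM in the chow libraries. The coding sequences printed above are identical, and the transcripts matched at 341 of 341 aligned bases, out of 345 nt for Rps27 and 374 nt for Rps27rt. The coefficient of variation over 36 libraries was 235% for the row of Rps27, 11.1% for Rps27rt and 10.8% for their sum, which averaged 1693 FPKM. Over the shared bases a read cannot be assigned to either gene by its sequence, so the separate levels of the 2 rows are uncertain. At the annotated starts the 2 genes shared a run of 19 bases, printed in capitals, in windows from 10 bases before to 20 bases after each start (chr3:90213629-90213658 for Rps27 and chr9:114982720-114982749 for Rps27rt, both minus strand, RefSeq promoters of GRCm38.p6).
Rps27: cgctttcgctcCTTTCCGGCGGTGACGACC
Rps27rt: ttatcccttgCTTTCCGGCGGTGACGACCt

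Similar splits occurred at lower contrast. Rpl30 averaged 33.7 ± 7.98 FPKM in high-fat kidneys and 34.0 ± 8.07 FPKM in chow kidneys, while Gm12191, a separate row that holds 47.8% of its 50-base stretches, averaged 770.2 ± 50.1 FPKM under the high-fat diet and 769 ± 72.03 FPKM under chow. Rpl26 averaged 89.8 ± 25.8 FPKM under the high-fat diet and 95.02 ± 20.7 FPKM under chow, while Gm15772, which holds 60.6% of its stretches, averaged 989.9 ± 88.9 FPKM under the high-fat diet and 975 ± 84.7 FPKM under chow. Rpl34 averaged 154 ± 10.6 FPKM under the high-fat diet and 151 ± 17.3 FPKM under chow, while Rpl34-ps1 averaged 722 ± 71.8 FPKM under the high-fat diet and 736 ± 72.5 FPKM under chow. In these 3 pairs, as in Rps27, the canonical row was the lower of the pair in every library.

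The opposite held for other copies. Rpl22l1 shares 56.5% of its stretches with Gm15421, whose row averaged 2.24 ± 0.363 FPKM in high-fat kidneys and 2.07 ± 0.507 FPKM in chow kidneys. Rplp2 shares 65.1% with Wdr89, whose row averaged 0.501 ± 0.182 FPKM under the high-fat diet and 0.520 ± 0.165 FPKM under chow. Rpl37rt matched Rpl37 at 293 of 294 aligned bases, and Rpl37 averaged 313 ± 29.7 FPKM under the high-fat diet and 313 ± 39.0 FPKM under chow. In all, 49 of 86 members had at least 50% of their 50-base stretches in other genes of the annotation. This share counts every other gene and need not come from 1 alone. Of the 86 members, 13 shared at least 25% with 1 other row of the tables. How the authors' counting treated reads that fit several places is not given in the sources used here, so the levels of all such members are uncertain.

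**Figure D1:**
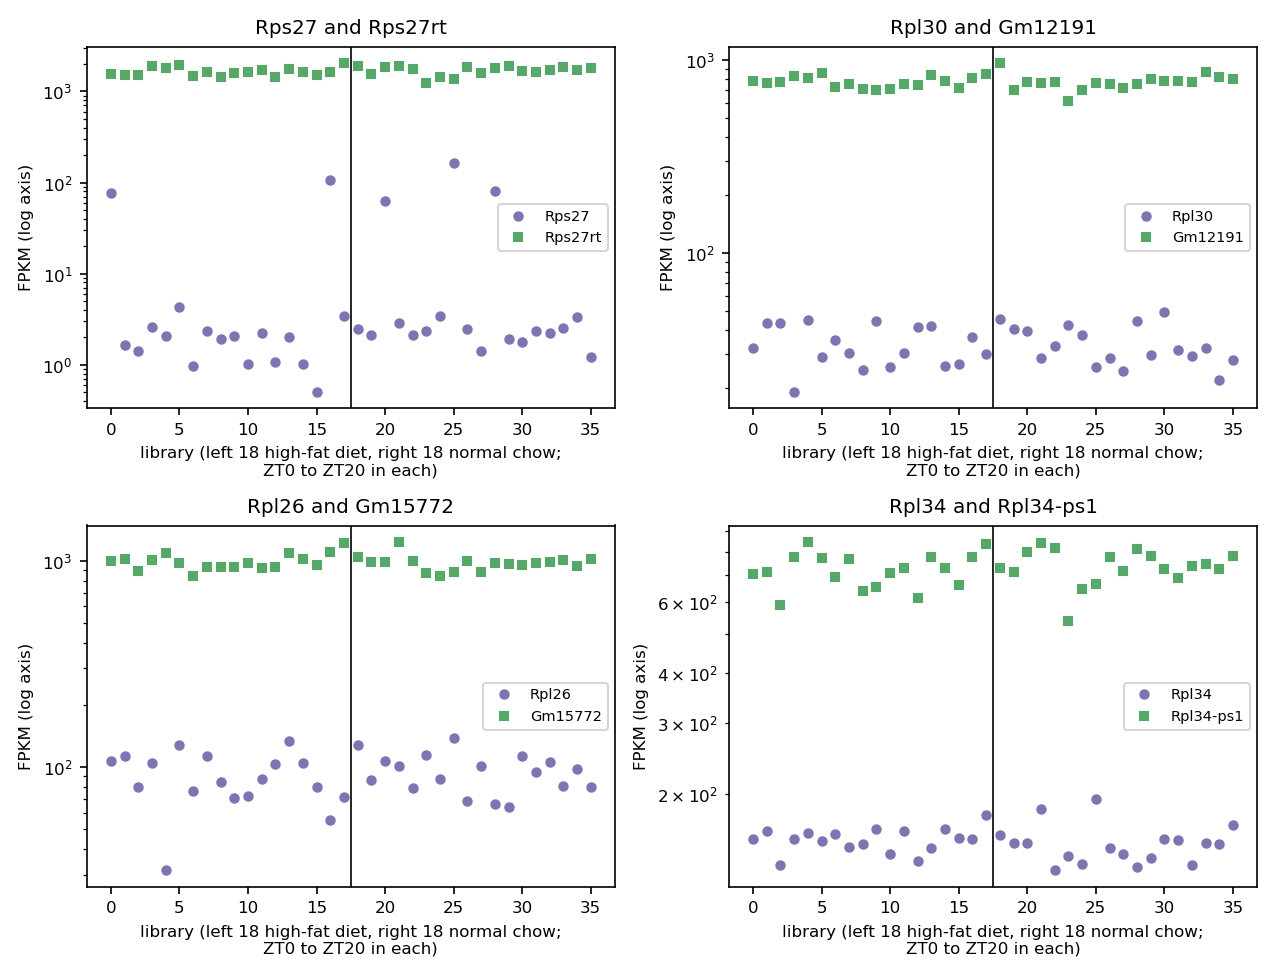
FPKM (vertical log axis) of 4 members and of the row that shares their sequence, in each of the 36 libraries (horizontal axis, high-fat diet on the left of the line and normal chow on the right, ZT0 to ZT20 within each). Circles are the member and squares its copy. Rps27 lies at or under 4.33 FPKM in 31 libraries and above 60 FPKM in 5, while Rps27rt stays between 1237 and 2027 FPKM, and the copies of Rpl30, Rpl26 and Rpl34 lie above them in every library.

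Across libraries the members moved together. The deviation of each member from its group mean was correlated between members over the 36 libraries, with a median Pearson r of 0.70 over 3655 pairs, and 94.0% of pairs had a positive r. These values describe genes that share the depth and scaling of each library, and members that share short length and high level. Such correlations were not computed for other genes, so none is shown to be particular to the members. For 76 of 86 members, r with the median of the other members exceeded 0.5. It was lowest for Rpl22l1 (−0.19), Rpl30 (−0.13), Rpl26 (−0.01), Rpl3l (0.02) and Rps27 (0.21), and all but Rpl3l are among the genes with a copy described above. Of the other members in those pairs, Rpl34 had 0.38, but Rpl37rt had 0.75, Rplp2 0.84, Rps27rt 0.89 and Rpl37 0.94.

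This shared movement ran alongside a trend over transcript length. Members are short, with a median transcript length of 713 nt against 1986 nt for all tested genes, at a GC content of 51.9% against 51.3%. In chow ZT4 replicate 4, the library with the smallest share of member FPKM (7.70%), the median member lay 0.25 log2 units below its mean over all libraries. The deviation of the tested genes from their own means rose there by 0.14 log2 units per doubling of length, which is the length trend of that library. In chow ZT4 replicate 2 the median member lay 0.26 log2 units above its mean and the length trend was −0.10. Among high-fat libraries, ZT8 replicate 1 had a median member at −0.22 with a length trend of 0.10, and ZT20 replicate 4 a median member at 0.20 with a length trend of −0.06. The trend over GC content in these libraries, in log2 units per 10 percentage points, was −0.39 in chow ZT4 replicate 4, 0.45 in chow ZT4 replicate 2, −0.27 in high-fat ZT8 replicate 1 and 0.06 in high-fat ZT20 replicate 4. In chow ZT0 replicate 1 the median member lay at 0.19 with a length trend of −0.01 and a GC trend of 0.14. With each library's length trend removed the median pairwise r was 0.39, and with its GC trend removed 0.65. What produced the trends was not tested.

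Members varied little within a group. The median within-group SD on the scale log2(FPKM + 0.5), which is used for all log2 values here and understates changes of low genes, was 0.14 for members, 0.19 for all tested genes and 0.15 for the 852 tested genes of at least 100 FPKM. The smallest was that of Rps3a1, a small subunit protein (0.06), followed by Rpl7 (0.07). The largest were those of Rps27 (2.01), Rpl26 (0.41) and Rpl30 (0.35), each with a more abundant copy. Next came the low rows Rpl3l (0.28), Rpl37rt (0.27) and Rps4l (0.24). Rpl34, whose copy was also the more abundant, had 0.14.

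**Figure D2:**
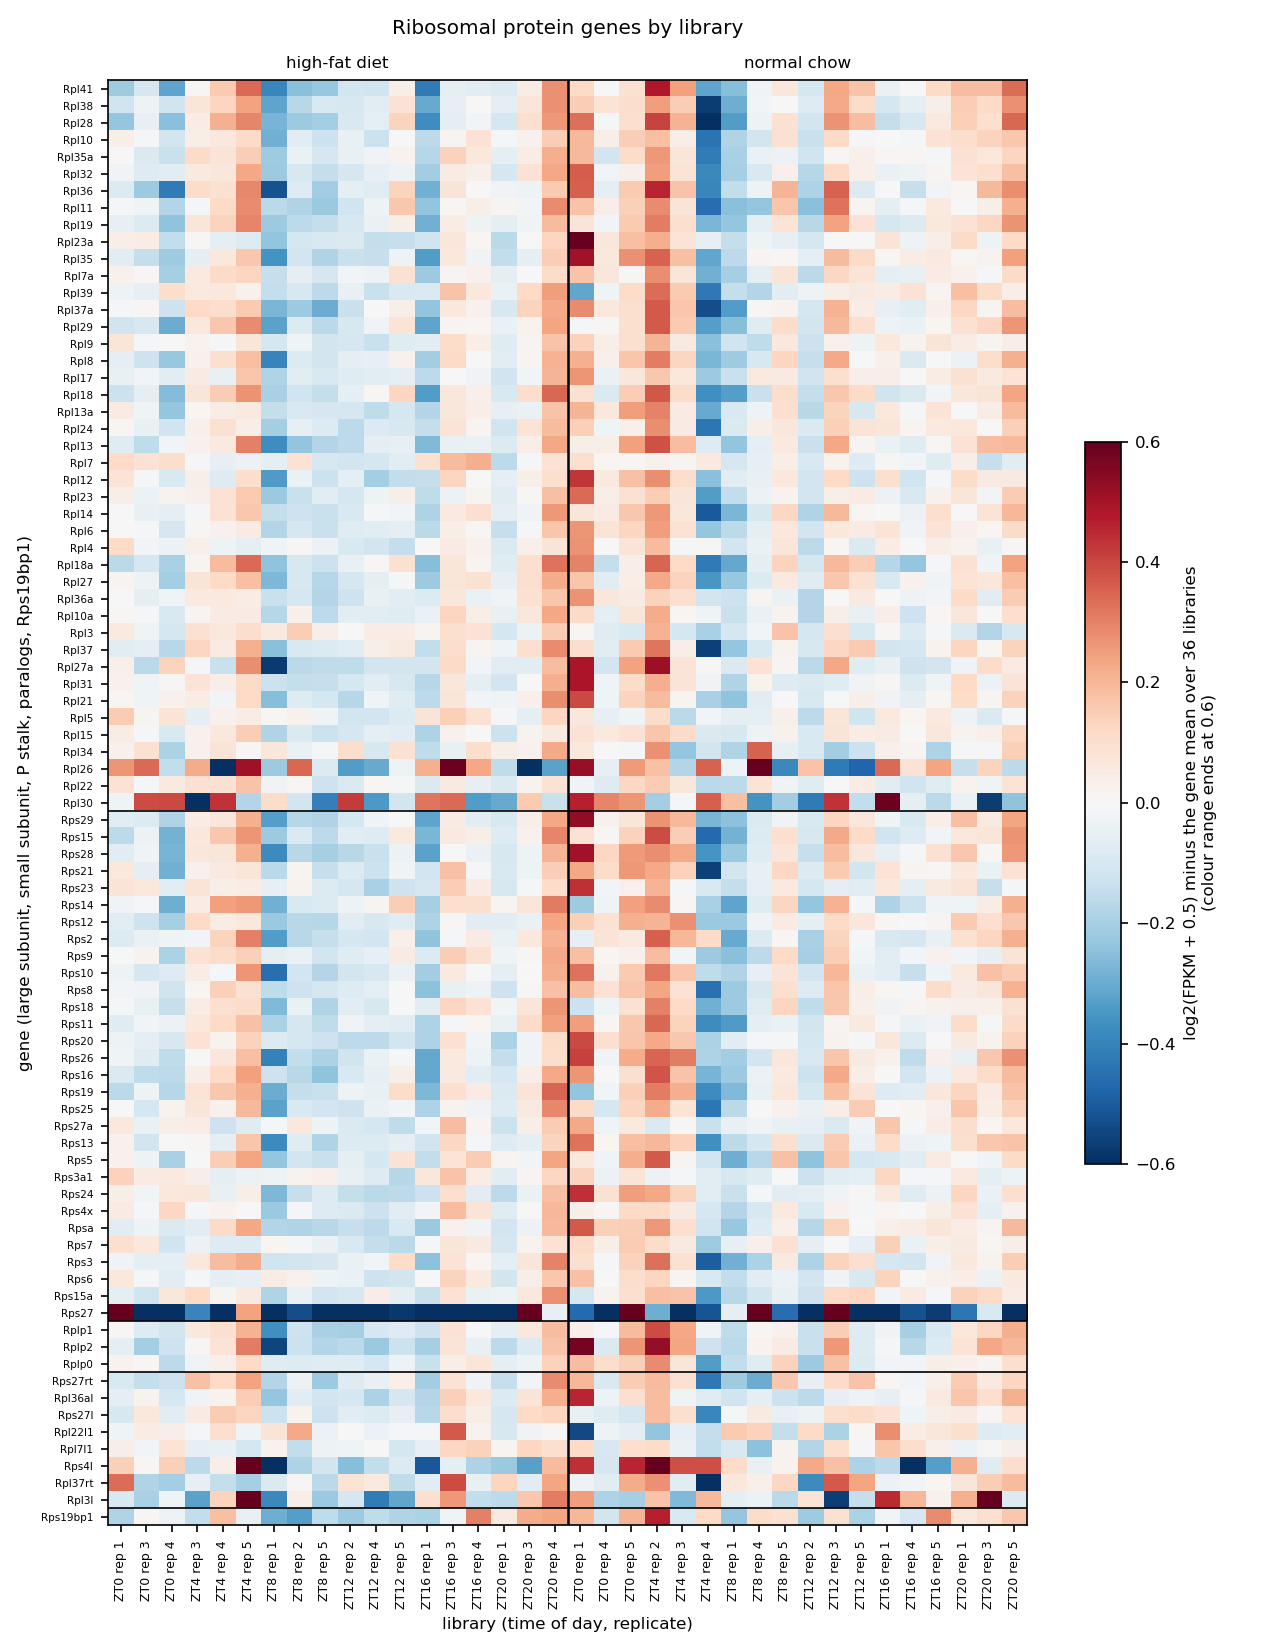
Colour gives log2(FPKM + 0.5) of 85 of the 86 genes (rows, ordered by class and level) minus its mean over 36 libraries, in each library (columns, high-fat diet left of the vertical line and normal chow right). Whole columns share a colour, as in chow ZT4 replicate 2 (median gene at 0.26) and chow ZT4 replicate 4 (median gene at −0.25), while the rows of Rps27, Rpl26 and Rpl30 follow their own course.

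Averaged over the 6 times, 7 of 86 members (8.14%) were lower in high-fat kidneys and 0 were higher at an adjusted p under 0.05 (limma with a mean-variance trend, Benjamini-Hochberg over all 11144 genes). The background in all tested genes was 11.4% lower and 5.25% higher, so the share of members called was not above that of other genes. At an unadjusted p under 0.05 the count was 19 of 86 members, or 22.1%, against 30% of all tested genes. The lower members were Rpl35, Rpl23a and Rpl41 of the large subunit, Rps12, Rps24 and Rps28 of the small subunit, and Rplp2 of the P stalk, with changes between −0.18 and −0.10 log2 units.

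Rpl35, a protein at the exit of the nascent chain tunnel, had a lowest, median and highest value of 634, 762 and 909 FPKM in the high-fat libraries, against 653, 841 and 1151 FPKM in the chow libraries. Its change was −0.17 ± 0.05 (SE, limma adjusted p = 0.0223). The diets overlapped, and 14 of 18 high-fat libraries lay below the chow median. Rpl23a, also at the tunnel exit, had 758, 842 and 975 FPKM in the high-fat libraries, against 808, 902 and 1361 FPKM in the chow libraries, a change of −0.12 ± 0.04 (limma adjusted p = 0.0406). The chow library of ZT0 replicate 1 stood above all others for this gene. It was also the highest library for Rpl35, Rplp2, Rps24 and Rps28, but not for Rpl41 or Rps12. Rpl41 had 2063, 2604 and 3512 FPKM in the high-fat libraries, against 2229, 2983 and 3863 FPKM in the chow libraries, a change of −0.17 ± 0.06 (limma adjusted p = 0.0449). Of its 18 high-fat libraries, 15 lay below the chow median.

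In the small subunit, Rps12 had 788, 875 and 1081 FPKM in the high-fat libraries, against 787, 968 and 1109.6 FPKM in the chow libraries, a change of −0.12 ± 0.04 (limma adjusted p = 0.0309). Here 16 of 18 high-fat libraries lay below the chow median although the lowest values of the diets nearly coincided. Rps28 had 971, 1219 and 1467 FPKM in the high-fat libraries, against 988, 1337 and 1792 FPKM in the chow libraries, a change of −0.15 ± 0.05 (limma adjusted p = 0.0487). Again 16 of 18 high-fat libraries were below the chow median. Rps24, a gene mutated in Diamond-Blackfan anaemia in humans, had 389, 451 and 532 FPKM in the high-fat libraries, against 427, 469 and 635 FPKM in the chow libraries, a change of −0.10 ± 0.04 (limma adjusted p = 0.0476). Rplp2 of the stalk had 673, 903 and 1219 FPKM in the high-fat libraries, against 880.0, 1010.0 and 1469 FPKM in the chow libraries, a change of −0.18 ± 0.06 (limma adjusted p = 0.0409). For all 7 genes the ranges of the diets overlapped, and 5 of the 7 share at least 50% of their 50-base stretches with another gene.

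The remaining members differed little in level between the diets. The median change over all 86 was −0.05 log2 units, with 74 of 86 negative, beside −0.03 over all tested genes, of which 61.3% were negative. Without the 4 chow libraries that hold adrenal transcripts the median over the members was −0.0025. That fit leaves chow ZT4 replicate 4 alone in its group, and with only that library left out the median was −0.07. For 78 members (90.7%) the 95% interval of the change lay within 1.2-fold in either direction, against 67.4% of all tested genes, and for 85 it lay within 1.5-fold. The exception to the wider bound was Rps27, with a change of −0.55 ± 0.62. By class the median change was −0.04 for the large subunit, −0.05 for the small subunit, −0.08 for the 3 stalk genes and −0.03 for the paralogs. The largest positive change was that of Rpl3, 0.08 ± 0.03 (limma adjusted p = 0.109), with 2 of 18 high-fat libraries below the chow median.

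**Figure D3:**
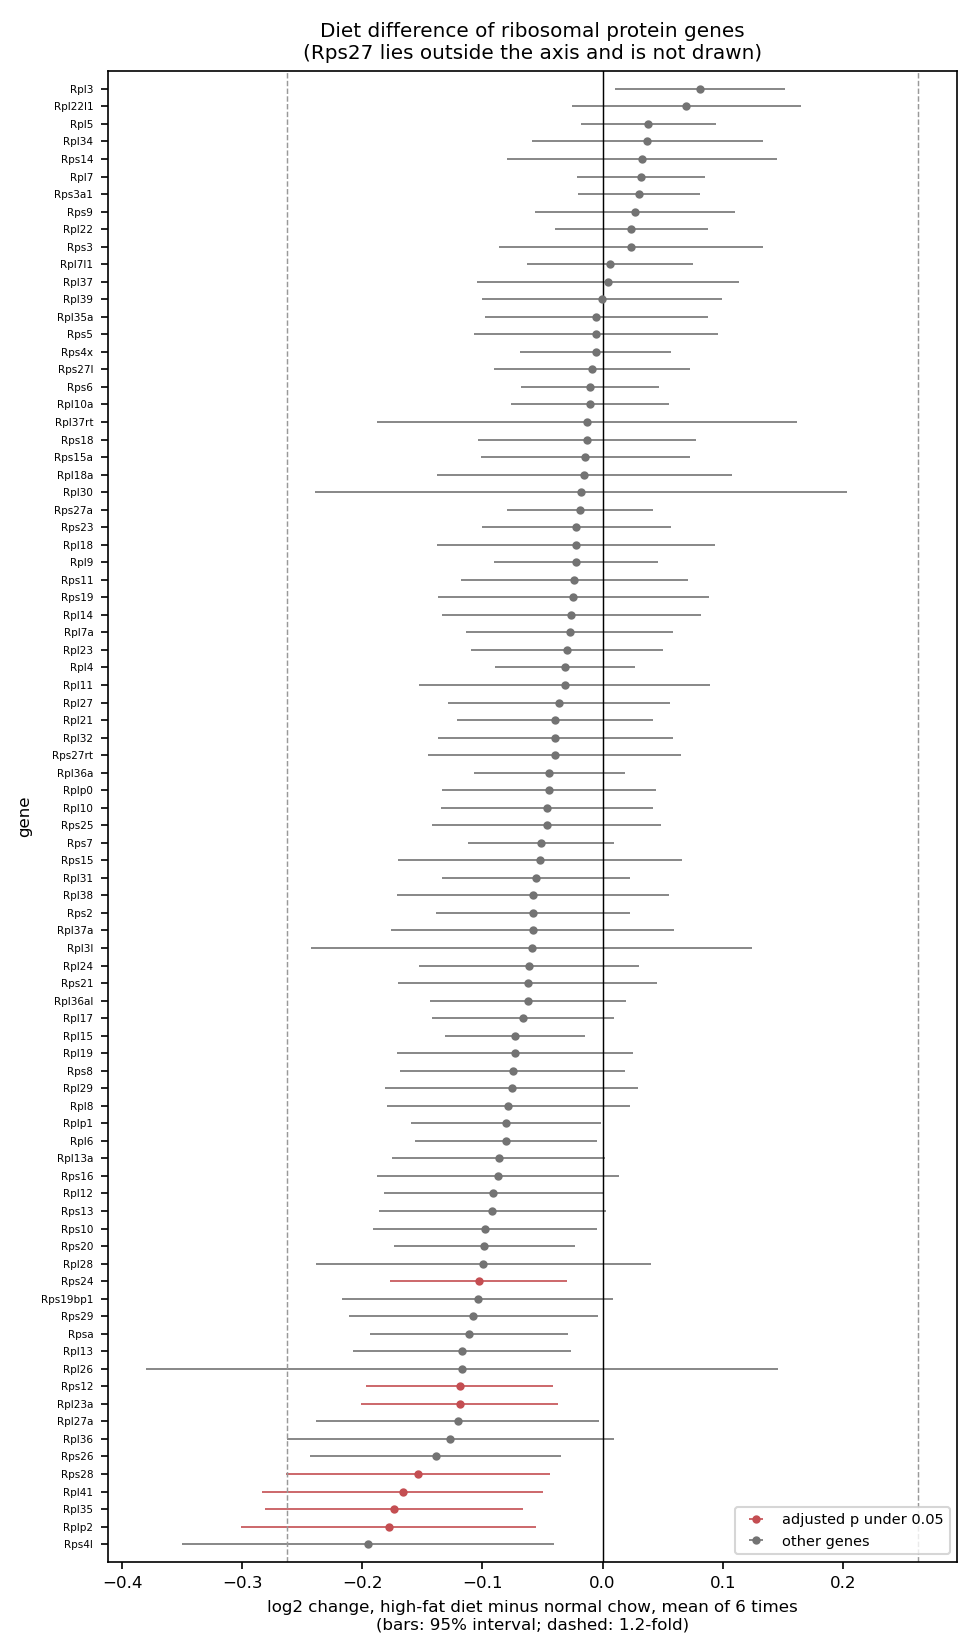
Log2 change of single genes (horizontal axis, high-fat diet minus normal chow, mean of 6 times) with its 95% interval, genes ordered by change. Dashed lines mark 1.2-fold. The 7 genes past an adjusted p of 0.05 lie between −0.18 and −0.10, and of all 86 genes 78 have an interval within 1.2-fold. Rps27, outside the axis, and 1 other gene are not drawn.

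The 7 calls depended on the libraries and on the scaling. With FPKM rescaled by median ratios or by the upper quartile, 0 of the 7 passed and Rpl3 was the 1 member called, as higher. The median change of the members was −0.0143 under median ratios, beside −0.0018 over all tested genes. Under the upper quartile it was −0.00651, beside 0.00545 over all tested genes. The share of lower genes among all calls was 50% under median ratios and 44.5% under the upper quartile in place of 68.4%. Left out in turn, single libraries moved the count between 1 and 26. It was 26 without chow ZT4 replicate 4, and 11 without high-fat ZT20 replicate 4, chow ZT0 replicate 4 or chow ZT12 replicate 2. It was 1 without high-fat ZT0 replicate 4, ZT16 replicate 1, ZT20 replicate 1 or ZT20 replicate 3, or without chow ZT4 replicate 3, ZT8 replicate 5 or ZT12 replicate 3. It was 2 without high-fat ZT4 replicate 4, ZT8 replicate 1 or ZT12 replicate 4, or without chow ZT0 replicate 1, ZT8 replicate 4, ZT16 replicate 5 or ZT20 replicate 5. It was 3 without high-fat ZT4 replicate 3 or ZT12 replicate 2, or without chow ZT0 replicate 5, ZT4 replicate 2, ZT12 replicate 5 or ZT16 replicate 1, and 4 without high-fat ZT0 replicate 1 or ZT12 replicate 5. Rpl35 was called in all 36 of these fits and Rps12 in 29, whereas Rpl23a was called in 16, Rplp2 in 15, Rpl41 in 13, Rps28 in 11 and Rps24 in 9.

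Transcripts of neighbouring tissue differed between libraries. The summed FPKM of 14 adrenal markers ranged from 0.312 to 1.43 in high-fat libraries, where Cyp11b2, Th and Pnmt were at 0 throughout, and from 0.506 to 4044 in chow libraries, where Cyp21a1, an adrenal steroid hydroxylase, exceeded 10 FPKM in 4 libraries (ZT0 replicate 5, ZT4 replicates 2 and 3, ZT16 replicate 4). The median of the adrenal sum was 0.892 FPKM in high-fat libraries and 0.836 FPKM in chow libraries. The sum of 9 adipocyte markers had a median of 345 FPKM in high-fat libraries (range 107 to 984) and 984 FPKM in chow libraries (range 242 to 3273). Without the 4 libraries with adrenal transcripts the median change of the members was −0.0025. Chow ZT4 is then left with replicate 4 alone, the library with the smallest share of member FPKM (7.70%). This setting therefore cannot separate the adrenal transcripts from the weight of that library. With only chow ZT4 replicate 4 left out, the median change was −0.07. Over 9 measured lymphocyte markers the sum ranged from 3.49 to 11.9 FPKM in high-fat libraries and from 3.40 to 7.43 FPKM in chow libraries, and over 8 macrophage markers from 63.4 to 123 FPKM in high-fat libraries and from 53.3 to 127 FPKM in chow libraries. The part of adipocyte, lymphocyte and macrophage transcripts in the result was not tested. Kidney identity was plain in every library, with 618 FPKM or more of Umod, the thick ascending limb marker, and 1801 FPKM or more of Slc34a1, the proximal tubule phosphate carrier. In bulk tissue, fewer cells of a type and less RNA per cell cannot be told apart.

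At single times no member passed the adjusted threshold between diets. The counts were 0 of 86 at each of ZT0, 4, 8, 12, 16 and 20 by limma, where 1.59%, 1.61%, 0.332%, 0.368%, 0.556% and 0.26% of all tested genes were called. At an unadjusted p under 0.05 there were 20 members at ZT0 (23.3%, against 14.1% of all tested genes), 0 at ZT4 (against 17.3%), 1 at ZT8 (Rpl27a, against 9.57%), 0 at ZT12 (against 7.12%), 1 at ZT16 (Rpl7, against 7.32%) and 0 at ZT20 (against 6.45%). The median change of the members was −0.16, 0.05, −0.08, −0.07, −0.01 and −0.03 log2 units from ZT0 to ZT20, beside −0.05, −0.11, 0.01, −0.01, 0.00 and −0.02 over all tested genes. The count at ZT0 was 1 without chow ZT0 replicate 4 and 4 without chow ZT4 replicate 4, and that at ZT4 was 2 without chow ZT4 replicate 2.

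Among the 6 times, the group means of the share of the members were furthest apart at ZT0. The share of all FPKM held by the members was 8.81 ± 0.179% in high-fat kidneys and 9.87 ± 0.242% in chow kidneys at ZT0 (SD, n = 3 each), and the libraries did not overlap (8.60 to 8.93% under the high-fat diet and 9.64 to 10.1% under chow). The chow library at 10.1%, replicate 5, held adrenal transcripts (Cyp21a1 at 1346 FPKM), and the other two chow libraries were at 9.64 and 9.86%. The median deviation of the members did overlap, at −0.11 to −0.0035 log2 units in high-fat libraries and −0.0048 to 0.19 in chow libraries. At this time 78 of 86 members (90.7%) had a negative change, and 0 passed the test; of all tested genes 59.5% had a negative change. Rpl35 had 700.1, 735 and 774 FPKM in the 3 high-fat libraries, against 849, 981 and 1151 FPKM in the 3 chow libraries, a change of −0.42 (limma adjusted p = 0.0986) without overlap. At ZT4 the chow libraries themselves spanned 7.70 to 9.82%, while the high-fat libraries spanned 9.37 to 9.53%. The lowest group share was that of high-fat ZT8, 8.33 ± 0.0506%, against 8.71 ± 0.563% in chow kidneys.

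**Figure D4:**
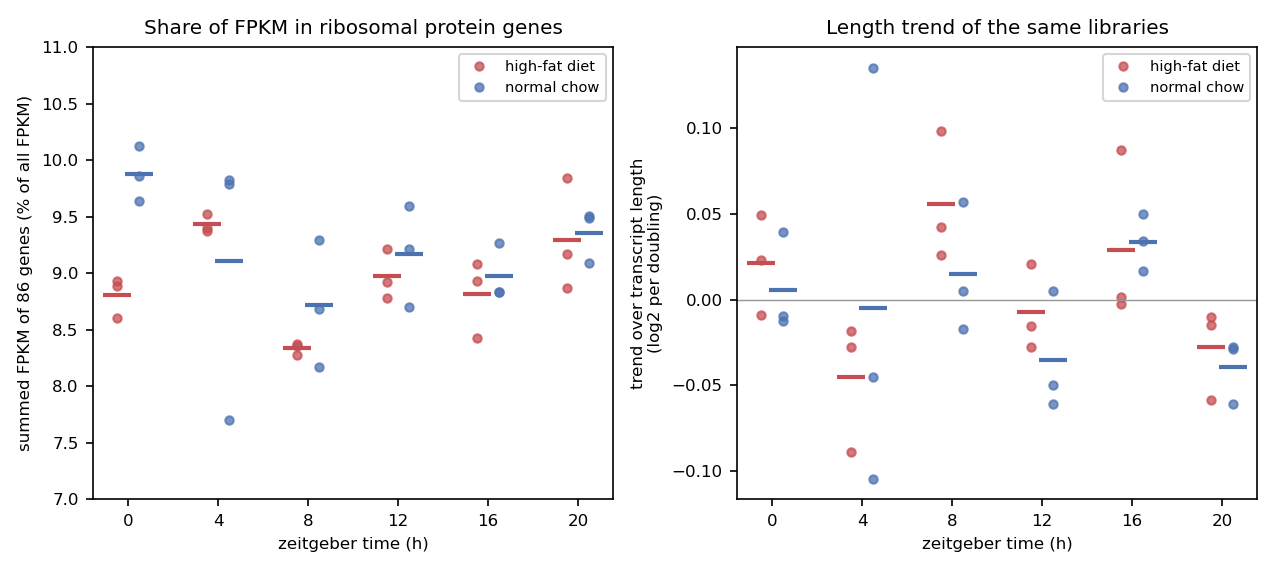
Left, summed FPKM of the 86 genes as a percentage of all FPKM (vertical axis, which starts at 7%) by zeitgeber time. Right, each library's trend over transcript length in log2 units per doubling. Points are libraries, bars are means of 3, high-fat diet left of normal chow. The diets are apart at ZT0 (8.60 to 8.93% under the high-fat diet, 9.64 to 10.1% under chow), and the chow library at 7.70% has the highest length trend, 0.14.

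Few members were called for a difference between times. The share of the members in high-fat kidneys was 9.37 to 9.53% at ZT4 and 8.28 to 8.37% at ZT8, with a median deviation of 0.04 to 0.15 log2 units at ZT4 and −0.22 to −0.09 at ZT8, without overlap in either measure; this difference between times in the share was not tested. A difference between the 6 times was called by limma's F test for 1 of 86 members in high-fat kidneys, against 6.3% of all tested genes, and for 1 of 86 in chow kidneys, against 12.2%. At an unadjusted p under 0.05 there were 7 members in high-fat kidneys, against 28.5% of all tested genes, and 6 in chow kidneys, against 28.4%. The 24 h cosine fit called 0 members in high-fat kidneys, against 7.3% of all tested genes, and 1 in chow kidneys, against 7.77%, with 7 members in each diet at an unadjusted p under 0.05, against 20.8% of all tested genes in high-fat kidneys and 22.8% in chow kidneys.

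In high-fat kidneys the called gene was Rpl7, a large subunit protein (limma F test, adjusted p = 0.0476). Its means from ZT0 to ZT20 were 561 ± 6.05, 511 ± 7.73, 515 ± 34.5, 489 ± 8.97, 586 ± 26.9 and 514 ± 43.3 FPKM (SD, n = 3 each). It was highest at ZT16, where its libraries held 556, 595 and 607 FPKM, and lowest at ZT12, where they held 483, 486 and 499 FPKM. In chow kidneys its means stayed between 502 ± 30.9 and 537 ± 17.8 FPKM (adjusted p = 0.647). The diet by time interaction of Rpl7 had an adjusted p of 0.999 by limma, so the time course was not shown to differ between the diets.

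In chow kidneys the called gene was Rps4l, the low paralog of Rps4x (limma F test, adjusted p = 0.0267, and 24 h cosine fit, adjusted p = 0.0325). Its means from ZT0 to ZT20 were 20.9 ± 4.38, 24.7 ± 3.94, 17.4 ± 0.936, 18.1 ± 2.77, 13.2 ± 2.16 and 18.1 ± 1.82 FPKM (SD, n = 3 each). The fitted curve peaked at 3.16 h after lights on, with 0.65 log2 units between peak and trough. In high-fat kidneys its means ran from 18.3 ± 0.974 FPKM at ZT0 and 19.7 ± 5.91 FPKM at ZT4 to 14.4 ± 2.33 FPKM at ZT16 and 15.8 ± 3.21 FPKM at ZT20, with a fitted difference of 0.40 log2 units that did not pass (limma adjusted p = 0.278). Its rhythm was not shown to differ between the diets (limma adjusted p = 1.000). Averaged over the day Rps4l had the most negative change of any member after Rps27, −0.20 ± 0.08, with a limma adjusted p of 0.0761. Of the chow libraries, ZT4 replicate 2 was the highest for Rps4l at 29.3 FPKM and carried adrenal transcripts, and the rhythm call was lost without the 4 adrenal libraries.

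Both calls rested on few libraries. The count for time in high-fat kidneys kept its value of 1 without high-fat ZT8 replicate 2, ZT20 replicate 1 or 4, or without chow ZT0 replicate 1, ZT8 replicate 5, ZT12 replicate 3, ZT20 replicate 1 or 3. It was 2 without chow ZT4 replicate 2, 9 without chow ZT4 replicate 4, which enters through the shared estimate of the spread, and 0 without any other library. The count for time in chow kidneys was 0 without ZT4 replicate 2 or ZT16 replicate 4 or 5, 2 without ZT8 replicate 5 or ZT12 replicate 3, 4 without ZT0 replicate 4 and 9 without ZT4 replicate 4. The count for rhythm in chow kidneys was 0 without ZT0 replicate 1 or 5, ZT4 replicate 2 or 3, ZT12 replicate 5 or ZT16 replicate 1, 4 or 5, 2 without ZT0 replicate 4 and 4 without ZT4 replicate 4, and that in high-fat kidneys was 1 without ZT0 replicate 1 or ZT4 replicate 4.

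No member was called for a difference between diets in its course over the day. The diet by time F test called 0 of 86, against 0.0179% of all tested genes, and the test of a difference in 24 h rhythm called 0 of 86, against 0.0269%, both by limma, and 0 members had an unadjusted p under 0.05 in either, where 2.75% and 3.17% of all tested genes did. The 5 members nearest to a call were Rpl7, Rps28, Rps27rt, Rps20 and Rpl36 in the first test (adjusted p = 0.999 each) and Rpl27a, Rps27, Rps27l, Rpl7 and Rpl22l1 in the second (adjusted p = 1.000 each). These tests had 3 mice per diet and time and called few genes of any kind. Without the 4 libraries with adrenal transcripts, which leaves chow ZT4 replicate 4 alone in its group, the diet by time test called 15 members.

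**Figure D5:**
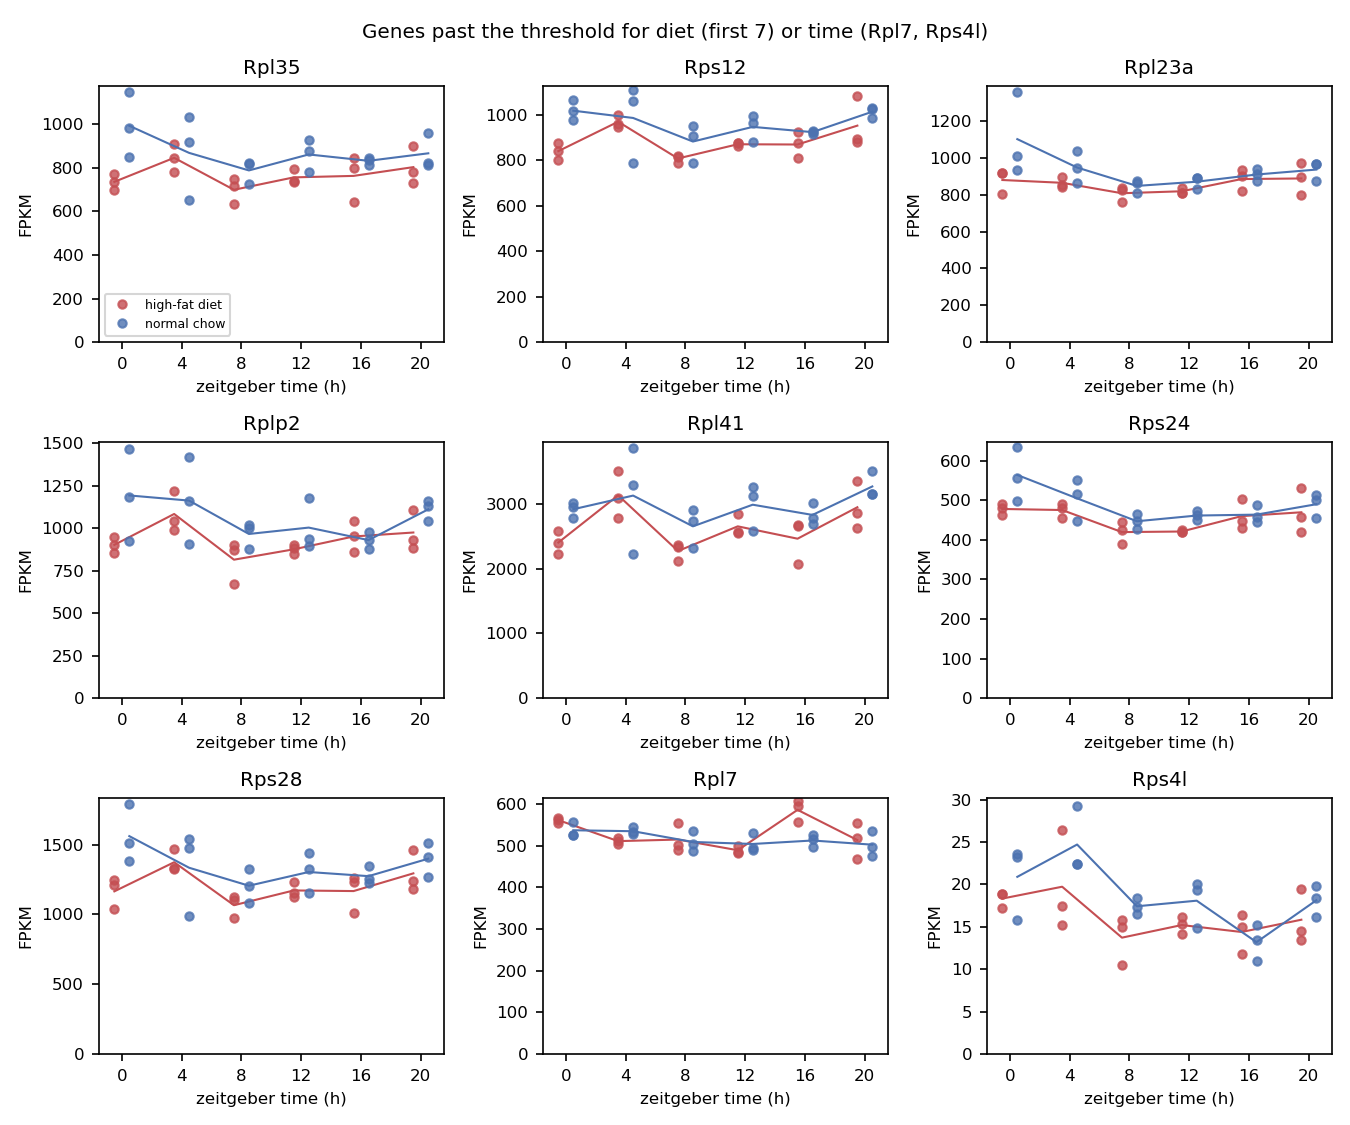
FPKM (vertical axis from 0) by zeitgeber time of the 7 genes called lower in high-fat kidneys over the day average and of Rpl7 and Rps4l, called for time. Points are libraries and lines join means of 3, high-fat diet left of normal chow at each time. Over all times pooled, the ranges of the diets overlap for all 9 genes. At a single time they can be apart, as at ZT0 for Rpl35, Rpl23a, Rpl41, Rps12, Rps24 and Rps28. Rpl7 is highest at ZT16 in high-fat kidneys (586 FPKM), and Rps4l is lowest at ZT16 in chow kidneys (13.2 FPKM).

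Genes that work beside the ribosomal proteins were set against them. Of 24 listed symbols for translation factors and other TOP messenger RNAs 23 were measured, all but Rack1, whose older symbol Gnb2l1 was among the 23. Of these genes 3 were higher and 1 lower in high-fat kidneys over the day average (limma, adjusted p under 0.05, against 5.25% and 11.4% of all tested genes). Eef1a1, the elongation factor that brings transfer RNA to the ribosome, averaged 2034 ± 215 FPKM in high-fat kidneys and 1867 ± 189 FPKM in chow kidneys (change 0.12 ± 0.04, adjusted p = 0.0312). Tpt1, a TOP messenger RNA for the protein TCTP, averaged 1972 ± 161 FPKM under the high-fat diet and 1827 ± 147 FPKM under chow (change 0.11 ± 0.03, adjusted p = 0.0130). Pabpc1, the cytoplasmic poly(A)-binding protein, averaged 61.2 ± 6.47 FPKM under the high-fat diet and 56.7 ± 6.17 FPKM under chow (change 0.11 ± 0.04, adjusted p = 0.0466). The lower gene was Eif3l, a subunit of initiation factor eIF3, with 69.1 ± 4.33 FPKM under the high-fat diet and 73.2 ± 4.99 FPKM under chow (change −0.08 ± 0.03, adjusted p = 0.0436). The median change over the 23 was 0.04.

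Of 19 genes of the mTORC1 pathway and of TOP control, 18 were measured, with 1 higher and 2 lower, against 5.25% and 11.4% of all tested genes. Mtor, the kinase itself, averaged 21.4 ± 3.62 FPKM in high-fat kidneys and 18.4 ± 3.804 FPKM in chow kidneys (change 0.23 ± 0.07, adjusted p = 0.0245). Eif4ebp1, the repressor of cap-dependent initiation that mTORC1 inactivates, averaged 12.6 ± 2.83 FPKM under the high-fat diet and 16.6 ± 6.22 FPKM under chow (change −0.34 ± 0.09, adjusted p = 0.0119). Rps6kb2, an S6 kinase, averaged 12.1 ± 1.77 FPKM under the high-fat diet and 14.1 ± 2.52 FPKM under chow (change −0.20 ± 0.06, adjusted p = 0.0182). Their libraries overlapped between diets, and at single times 0 genes of either list passed.

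A few of these genes were called over the day, where the 24 h fit called 7.3% of all tested genes in high-fat kidneys and 7.77% in chow kidneys. In the first list of 23 the 24 h fit called 1 gene in high-fat kidneys, the splicing factor gene Hnrnpa1 (0.40 log2 units from peak to trough, peak at 9.24 h, adjusted p = 0.00225), and 1 in chow kidneys, the initiation factor Eif4b (0.57, peak at 7.27 h, adjusted p = 0.0106). In the second list it called Mtor in high-fat kidneys (0.54, peak at 9.22 h, adjusted p = 0.00727), and in chow kidneys Myc, a transcription factor that drives ribosomal genes (1.17, peak at 22.2 h, adjusted p = 0.00277), and Larp1 (0.29, peak at 19.9 h, adjusted p = 0.0241). The F test between times called 2 genes of the first list in high-fat kidneys (Eif4b and Pabpc1), against 6.3% of all tested genes, and 2 in chow kidneys (Eif4b and Eef1g), against 12.2%. Of the second list it called 0 in high-fat kidneys and 3 in chow kidneys (Myc, Eif4ebp1 and Larp1). The highest chow libraries of Eif4ebp1 carried adrenal transcripts, as given above. A difference between diets in time course or in rhythm was called for 0 genes of either list, against 0.0179% of all tested genes for time course and 0.0269% for rhythm.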

How the data were processed

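Kidney RNA was extracted with TRIzol and made into TruSeq libraries, per the labels' protocols. The authors deposited FPKM, 1 table per diet with 24883 rows. The tools that the submitters' processing notes name are CASAVA 1.8.2, Bowtie and Cuffnorm, and the build is mm10. Whether 1 Cuffnorm run made both tables and how reads with several matches were treated is not given in the sources used here. The unit was taken as FPKM from the tool and the values. A difference between runs cannot be told apart from diet. The label field for the diet carries ZT3 in its name, which is none of the 6 sampled times. Nothing says whether the 3 libraries of a group share a cage or batch, so p-values measure the spread between them.

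Repeated symbols (280, in 817 rows) were left out. Values were tested as log2(FPKM + 0.5) for 11144 genes with a mean of at least 1 FPKM, in limma 3.58.1 (R 4.3.3) with 12 group means and a mean-variance trend, or with 24 h cosine and sine terms within a diet. Scripts were tested on simulated data. Total reads are unknown. Steps between low values of 1893 genes, 94.4% of them within 0.05 of a whole multiple, gave relative depths of 0.337 to 1.45. Of 630 pairs of libraries 0 held identical values. Fitted trends used GC and length of GENCODE M21 transcripts (11089 of 11144 genes matched). Shared stretches are 50-base words of those transcripts.

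The members, lists, tests and alternatives were chosen with earlier results of these data known. Named were the 5 highest and 5 lowest members, all paralogs and stalk genes, all members called, the 5 members with the smallest p for a change of time course, and up to 4 called genes per other list. Of these, 1 gene is not reported here, although it stayed in every test and count. Alternatives were other pseudocounts, filters and rescalings, a replicate block, removal of GC or length trends, and leaving out the adrenal libraries or each library in turn. Sums of rows that share sequence were added after seeing the data. No column of values was left unused.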

Additional observations from a re-analysis of the deposited data

How the results depend on the processing

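Of 154 values (14 results under 11 alternatives other than leaving out a library), 126 stayed. The 7 members called between diets over the day were 7 with a pseudocount of 1 or 0.1 and with a filter of 5 FPKM. They were 2 with no filter, which tests more genes, and 1 (Rpl3, higher) under both rescalings and without the adrenal libraries. They were 13 with the length trend removed, 12 of them lower, and 9 with the GC trend removed. Time in chow kidneys (1) gave 0 under both rescalings, 3 with the GC trend and 6 with the length trend removed, and 29 without the adrenal libraries. Time in high-fat kidneys (1) gave 0 under both rescalings, 2 with the length trend removed and 7 without the adrenal libraries. Rhythm in chow kidneys (1) gave 0 with no filter, under both rescalings and without the adrenal libraries, and 2 with the length trend removed. Rhythm in high-fat kidneys (0) gave 1 with the GC trend removed. The count at ZT0 (0) gave 1 with the GC trend and 2 with the length trend removed. Without the adrenal libraries the count at ZT4 (0) was 47 and that of the diet by time test (0) was 15. That setting leaves chow ZT4 replicate 4 alone in its group, and the lone library is then assumed to vary like the other groups. The cause of the other shifts was not tested. Same-numbered libraries had a median r of 0.0384 over 119 pairs, against −0.00402 over 475 others. These medians gave no sign of pairing by number, but cannot show whether some libraries shared a cage or batch. A replicate block gave 2 calls between diets (Rpl35 and Rps12), 2 for time in chow kidneys and 0 for time in high-fat kidneys. With the GC trend removed as well, it gave 8 calls between diets and 0 for time in high-fat kidneys. Leaving out each library in turn gave 1 to 26 calls between diets (26 without chow ZT4 replicate 4), 0 to 9 for time in chow kidneys and 0 to 9 in high-fat kidneys (9 without the same library in both), 0 to 4 for rhythm in chow kidneys, 0 to 1 for rhythm in high-fat kidneys, 0 to 4 at ZT0 and 0 to 2 at ZT4. The median change of the members was −0.07 to −0.03 on leaving out each library, −0.01 under either rescaling and −0.0025 without the adrenal libraries. Rows that share sequence were also summed, an alternative chosen after seeing the data. The mean sum was 1693 FPKM for Rps27 with Rps27rt, 804 FPKM for Rpl30 with Gm12191 and 1075 FPKM for Rpl26 with Gm15772. It was 881 FPKM for Rpl34 with Rpl34-ps1 and 172 FPKM for Rpl22l1 with Gm15421. A sum is not the level of either gene alone. Members are high enough that depth limits few of them; it limits Rpl3l, Rpl37rt and the low values of Rps27.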
